A study of Mus musculus with 36 samples.

Results

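The alpha-1-antitrypsin genes (Serpina1a, Serpina1b, Serpina1c, Serpina1d and Serpina1e) and 5 genes of the alpha-1-antichymotrypsin family (Serpina3c, Serpina3g, Serpina3k, Serpina3m and Serpina3n) were followed in mouse liver from before birth to adulthood. They were picked out by symbol, and all 10 were found among the 21889 gene symbols of the expression table. The livers came from 36 male C57BL/6J mice (C57BL/6 in the strain label), 3 at each of 12 ages, and were compared to describe how hepatic mRNA changes as the source of nutrients changes. The ages were GD17.5 (late gestation, labelled Day -2), Day 0 (at birth, before suckling), Days 1, 3, 5, 10, 15 and 20 (suckling) and Days 25, 30, 45 and 60 (after weaning, which took place at an age of 21 days). The mice were untreated offspring of several litters; livers from Day 3 on were taken in the morning, those of Day 0 right after birth and those of Day 1 a day later. Day 60 served as the adult reference. Levels are given as FPKM, the number of sequenced fragments scaled to transcript length and to the size of the library, so that genes can be compared with each other.

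Serpins are protease inhibitors that act as bait: the target protease cuts an exposed reactive centre loop near the end of the protein, and the serpin then changes shape and traps it. Alpha-1-antitrypsin, made by hepatocytes and secreted into plasma, inhibits neutrophil elastase, and the mouse carries several copies of its gene where humans carry a single one. The Serpina3 genes are likewise a mouse expansion of the human gene for alpha-1-antichymotrypsin: Serpina3k (contrapsin) and Serpina3c are plasma inhibitors, Serpina3n is an acute phase inhibitor of cathepsin G and granzyme B, Serpina3g stays inside cells and inhibits cysteine cathepsins, and Serpina3m is a further liver member.

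The copies differ most in the loop that meets the protease, so the coding stretch that holds it is shown for the 5 Serpina1 genes. In NCBI37/mm9 with the GENCODE M1 annotation, the build of the deposited values, all 10 genes lie on chromosome 12, from Serpina1b (chr12:104966366-104976368, minus strand) to Serpina3n (chr12:105644939-105652539, plus strand), and each has 5 exons. The stretches below are 84 coding bases of exon 5 on the gene's own strand, and capitals mark the bases that differ from Serpina1a. They lie at chr12:105091957-105092040 in Serpina1a, chr12:104966524-104966607 in Serpina1b, chr12:105133294-105133377 in Serpina1c, chr12:105001962-105002045 in Serpina1d and chr12:105185300-105185383 in Serpina1e.
Serpina1a: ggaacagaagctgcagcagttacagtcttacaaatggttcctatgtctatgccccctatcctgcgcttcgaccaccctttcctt
Serpina1b: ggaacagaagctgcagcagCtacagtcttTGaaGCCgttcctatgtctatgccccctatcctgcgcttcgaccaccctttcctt
Serpina1c: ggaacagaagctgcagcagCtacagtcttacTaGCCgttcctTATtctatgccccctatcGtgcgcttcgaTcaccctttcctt
Serpina1d: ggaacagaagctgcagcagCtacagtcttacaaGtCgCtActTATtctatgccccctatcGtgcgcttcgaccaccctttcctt
Serpina1e: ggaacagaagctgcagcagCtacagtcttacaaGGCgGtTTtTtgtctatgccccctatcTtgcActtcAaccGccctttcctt
Serpina1e carried the most capitals, 12 of 84 bases, against 6 in Serpina1b, 10 in Serpina1c and 9 in Serpina1d. Over the 5 copies, 18 of the 84 loop bases differed (21.4%), and 68 of the other 1158 coding bases (5.87%).

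Among the Serpina3 genes the same region is shown for Serpina3k, Serpina3m and Serpina3n, the 3 with the highest levels in liver. Capitals mark the positions at which the 3 genes do not all carry the same base, compared position by position without gaps, at chr12:105583479-105583562, chr12:105631979-105632062 and chr12:105651658-105651741 on the plus strand.
Serpina3k: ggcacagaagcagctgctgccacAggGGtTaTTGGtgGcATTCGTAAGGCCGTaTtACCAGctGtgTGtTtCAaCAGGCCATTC
Serpina3m: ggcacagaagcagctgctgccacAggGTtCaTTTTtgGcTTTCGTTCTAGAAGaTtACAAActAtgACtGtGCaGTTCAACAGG
Serpina3n: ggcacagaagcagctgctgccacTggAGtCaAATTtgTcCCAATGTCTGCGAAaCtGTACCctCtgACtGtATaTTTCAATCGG
In this ungapped comparison 45 of the 84 bases were not shared by all 3. The letters TTCAACAGG end the Serpina3m stretch but stand further from the end in Serpina3k, so part of the 45 can come from an offset. These 3 are the inhibitors whose levels are set against each other below.

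Close copies matter for the measurement itself. Coding sequences of 2 Serpina1 genes were 96.3 to 98.5% identical, those of 2 Serpina3 genes 81.9 to 91.8%, and a Serpina1 and a Serpina3 gene 62.9 to 65.1%. A read that falls in a stretch common to several copies cannot be assigned to 1 of them from its own sequence. Its mate in the paired-end libraries may place it, so shared stretches do not give the number of ambiguous fragments. How ambiguous reads were shared out is not given in the sources used here. Of all stretches of 100 bases in the reference transcript, 58.5% of Serpina1c and 45.0% of Serpina1a also occurred in another gene of the cluster, mostly in each other, against 29.3% of Serpina1d, 26.4% of Serpina1b and 14.8% of Serpina1e. Serpina3 transcripts shared at most 6.11% (Serpina3k, all of it with Serpina3m), and Serpina3c shared none. The split between Serpina1a and Serpina1c is therefore the least certain, and sums over the Serpina1 and over the Serpina3 genes are given as well. The sums too may depend on how shared reads were treated. They also depend on transcript length, to which FPKM is scaled (reference transcripts of 1762 bases for Serpina1a and 1361 for Serpina1c).

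**Figure D1:**
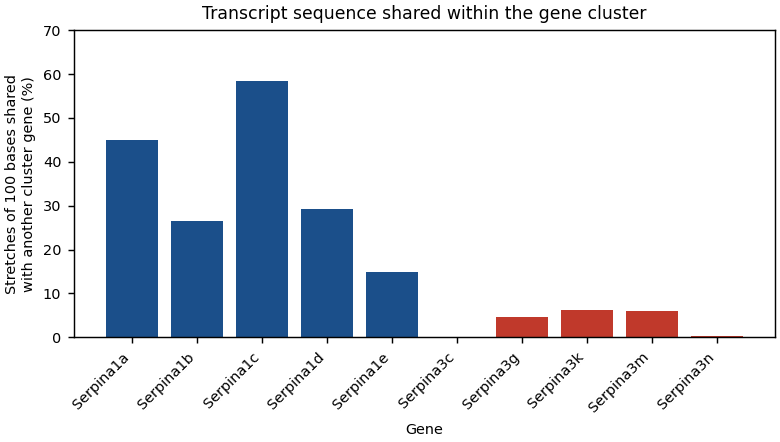
Bars give, for each gene, the percentage of 100-base stretches of its reference transcript that are found unchanged in another gene of the cluster; Serpina1 genes are blue and Serpina3 genes red. Serpina1c (58.5%) and Serpina1a (45.0%) stand highest, and the highest Serpina3 bar is that of Serpina3k (6.11%).

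A short stretch of the Serpina1 promoters was compared between the copies. RefSeq (GRCm38.p6) promoters were matched for 8 of the 10 genes, all but Serpina3k and Serpina3m. From each of the 5 Serpina1 promoters, 100 bases upstream of the start site were cut out around the letters GTTAAT nearest to it. They lie at chr12:103863626-103863725 (Serpina1a), chr12:103738201-103738300 (Serpina1b), chr12:103904963-103905062 (Serpina1c), chr12:103773635-103773734 (Serpina1d) and chr12:103956961-103957060 (Serpina1e) on the minus strand. The stretches are thus lined up on shared letters, and they do not show how alike the promoters are elsewhere. They are shown because Serpina1e, described below, moved apart from the other copies. Capitals mark bases that differ from Serpina1a.
Serpina1a: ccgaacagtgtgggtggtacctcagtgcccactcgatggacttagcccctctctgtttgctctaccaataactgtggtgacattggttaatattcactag
Serpina1b: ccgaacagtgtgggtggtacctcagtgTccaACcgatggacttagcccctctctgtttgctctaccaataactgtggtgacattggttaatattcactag
Serpina1c: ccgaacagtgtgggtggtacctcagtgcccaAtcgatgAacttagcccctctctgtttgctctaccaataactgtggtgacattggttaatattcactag
Serpina1d: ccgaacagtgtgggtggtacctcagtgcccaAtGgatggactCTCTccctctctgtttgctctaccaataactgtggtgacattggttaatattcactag
Serpina1e: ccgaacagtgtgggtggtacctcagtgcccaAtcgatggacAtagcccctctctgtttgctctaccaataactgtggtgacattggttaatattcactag
Serpina1e was 98% identical to Serpina1a here, Serpina1c 98%, Serpina1b 97% and Serpina1d 94%. The letters GTTAAT, part of the element that HNF1 factors bind, were searched on both strands of the 250 bases before the start site. They were in all 5 Serpina1 promoters and in that of Serpina3c, there at position -239. Over the same 250 bases they were in 6.43% of all 32851 RefSeq promoters. In the annotated Serpina1 promoters GTTAAT began 16 to 27 bases before the start site in 4 of the copies and 78 bases before it in Serpina1e. These distances depend on the start site that RefSeq gives each copy, and start sites of other annotations were not compared. The letters TTCNNNGAA, a STAT-type element searched on both strands, were found among the 8 in Serpina3g, against 7.02% of all promoters. Such matches describe the letters in these 250 bases and no more.

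The libraries carried the marks of liver at every age. Alb, the gene for albumin, reached 3272 ± 518 FPKM (SD, n = 3) at GD17.5, its lowest level. Summed FPKM per mouse ranged from 353712 to 450597, and the number of fragments behind each value is not in the table. The liver before and just after birth is also a blood-forming organ: the 8 erythroid markers together summed to between 127310 and 185245 FPKM per mouse at GD17.5 and between 651 and 716 at Day 60, and the 9 neutrophil markers to between 1898 and 3610.3 and between 1.402 and 2.76. In such whole-tissue samples, fewer cells of a type and less mRNA per cell cannot be told apart. Some libraries stood apart in markers of other organs: 6 muscle markers summed to 1025 FPKM in replicate 1 of Day 0, against 2.06 and 1.39 in its other 2 mice, and 7 pancreatic markers to 21585 FPKM in replicate 1 of Day 60, against 0.378 and 1.77. The pancreatic sum also varied within other ages, with 7291 FPKM in replicate 2 of Day 20 (31.2 and 34.4 in the other mice), 4966 in replicate 3 of Day 15 (483 and 471), 5565 in replicate 3 of Day 0 (957 and 571) and a range of 0.717 to 4753 at Day 45. Day 0 replicate 1 also held the highest of the 3 values for Serpina1b, Serpina1d, Serpina1e and all 5 Serpina3 genes. Of the 240 pairs of a gene and a comparison fitted for the 10 genes, leaving out Day 0 replicate 1 changed 10 calls and leaving out Day 60 replicate 1 changed 3. Leaving out Day 20 replicate 2 changed 2, Day 15 replicate 3 changed 1 and Day 0 replicate 3 changed 0. The most calls, 12, changed without Day 0 replicate 2, whose muscle markers summed to only 2.06 FPKM.

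All 10 genes had their lowest mean at GD17.5 and were higher at Day 0, before the first milk. No age between GD17.5 and Day 0 was sampled, so a change at birth stands here and below for that whole step. By rank of mean FPKM among all symbols at GD17.5, the Serpina1 genes stood from 54 (Serpina1e) to 381 (Serpina1d). At GD17.5 the 5 Serpina1 genes stood between 106 (Serpina1d) and 545 FPKM (Serpina1e), and none of the Serpina3 genes exceeded the 2.64 ± 0.391 FPKM (n = 3) of Serpina3n. From GD17.5 to Day 0, 10 of 10 rose and 0 fell, where 13.1% of the 11149 genes tested rose and 41.4% fell (limma on log2(FPKM + 1), Benjamini-Hochberg adjusted p under 0.05). The median difference over the 10 genes was 2.91 on the log2(FPKM + 1) scale, against -0.29 over all genes tested. This scale understates the change of the lowest genes.

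The size of the rise at birth on the log2(FPKM + 1) scale varied widely between the genes. Serpina3k, Serpina3m and Serpina3n rose by 6.82 (SE 0.49, adjusted p = 5.8e-12), 6.19 (SE 0.30, 1.1e-15) and 5.60 (SE 0.22, 1.1e-17, limma) on the log2 scale. Serpina1e rose by 4.44 (SE 0.16, adjusted p = 1.3e-18, limma) and the other Serpina1 copies by 2.42 to 3.26. Serpina3g, the intracellular member, rose by 1.99 and Serpina3c, the lowest in liver, by 0.69. For genes under 1 FPKM in the fetus the added 1 shrinks the rise, so this is not the order of FPKM ratios. Mean FPKM went from 0.0139 to 0.703 for Serpina3c and from 0.0629 to 92.8 for Serpina3m. It went from 0.837 to 230 for Serpina3k and from 314 to 1720 for Serpina1a. Without Day 0 replicate 1, all 10 differences kept their direction and stayed past the threshold; that of Serpina3k became 6.34, and that of Serpina3c moved from 0.69 to 0.46. Over the same step all 8 erythroid markers fell, and the 5 hepatocyte markers found in the table (Alb, Ttr, Apoa1, Apob and Cps1) summed to between 7391 and 8887 FPKM at GD17.5 and between 36423 and 45445 at Day 0. The part of this shift in the rise of the serpins was not tested.

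Measured against adults, the fetal livers showed the whole group at its lowest. In GD17.5 against Day 60, 0 of 10 were higher and 10 of 10 lower, with a median log2 difference of -4.45, where 56.4% of all genes tested were higher and 18.6% lower, with a median of 0.56. With adjustment over all genes and all 11 comparisons together, each of the 10 was called against Day 60 at some age, as were 90.7% of the genes tested. The 11 comparisons with Day 60 share the same 3 adult mice.

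Serpina1a and Serpina1b had their called rises by Day 10. In the 3 fetal mice Serpina1a was at 276, 328 and 337 FPKM, at Day 0 at 1630.1, 1857 and 1675 and at Day 60 at 2972, 3338 and 3593, with no overlap between these ages. Between neighbouring ages it rose from Day 1 to Day 3 (log2 difference 0.52, adjusted p = 0.0027) and from Day 5 to Day 10 (0.56, adjusted p = 0.00037, limma). No later step of Serpina1a passed the test, and from Day 10 on its age means lay between 2866 and 3354 FPKM. Serpina1b rose at the same steps, by 0.52 and 0.45, and from Day 10 on lay between 3866 and 4677 FPKM. Scaling the libraries to a common upper quartile ended the call of both genes from Day 1 to Day 3 (limma adjusted p = 0.098 and 0.16), as leaving out replicate 2 of Day 3 did for Serpina1b (adjusted p = 0.054); leaving out replicate 3 of Day 5 ended the later call of Serpina1b (adjusted p = 0.083).

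Serpina1c and Serpina1d were below their adult level for longer. Serpina1c stood at 374, 369.9 and 456 FPKM in the fetal mice, at 2331, 2347 and 2328 at Day 0, at 4814, 4815 and 4661 at Day 10 and at 8197, 9024 and 8733 at Day 60, so that the mice of each of these ages lay above all those of the one before. It remained below Day 60 at every age up to Day 20, by 1.89 (log2) at Day 0 and 0.57 at Day 20 (adjusted p = 0.0013, limma), and its differences from Day 60 at Days 25 and 30 did not pass the test. Serpina1d, the copy with the lowest fetal level, went from 96.4, 108 and 115 FPKM at GD17.5 to 1230.2, 901 and 979 at Day 0 and 2842, 3168 and 3635 at Day 60. It was below Day 60 up to Day 15 (-0.59, adjusted p = 0.0023, limma). Both genes rose from Day 5 to Day 10, by 0.70 and 0.61.

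Serpina1e followed a course of its own, high at birth, low through late suckling and high again after weaning. The fetal mice held 525, 489 and 619.6 FPKM and the newborn mice 15388, 9827 and 10836, and at Day 1 the values were 10894, 10366 and 12630.2. By Day 15 they had come down to 1912, 1718 and 2277 and at Day 20 to 1705, 1921 and 2294, below every newborn and every adult mouse. Values then were 4309, 4265 and 3628 at Day 25, 14016, 12491 and 13211 at Day 30 and 11697, 10418 and 13993 at Day 60. The newborn and adult levels overlapped, and their difference of -0.02 (log2, SE 0.16) gave an adjusted p of 0.93 (limma).

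Each turn of this course passed the test. Serpina1e fell from Day 1 to Day 3 by 1.17 (SE 0.16, adjusted p = 1.3e-05) and from Day 10 to Day 15 by 0.84 (adjusted p = 0.00055, limma). Its difference of -0.56 between Days 3 and 5 missed the threshold (adjusted p = 0.057, limma). That difference passed with the filter at 5 FPKM (0.043), with the replicate block (0.045) and without Day 0 replicate 1, Day 0 replicate 2 or Day 45 replicate 3 (0.029 to 0.046). Leaving out a mouse of Day 3 or Day 5 did not bring the call. Serpina1e rose from Day 20 to Day 25 by 1.05 (adjusted p = 3.8e-05) and from Day 25 to Day 30 by 1.71 (SE 0.16, adjusted p = 1.3e-08, limma). From Day 1 to Day 3, 3 of the 10 genes rose (Serpina1a, Serpina1b and Serpina1c) and 1 fell (Serpina1e), beside 8.22% and 3.09% of all genes tested; under upper quartile scaling 0 rose and 2 fell (Serpina1e and Serpina3k), and the call of Serpina1c was also lost without replicate 2 of Day 3 (adjusted p = 0.078, limma). From Day 25 to Day 30, Serpina1e was the 1 member of 10 that rose and 0 fell, beside 0.834% and 0.807% of all genes. Upper quartile scaling gave Serpina1e a log2 difference of -0.57 from Day 60 at Day 1 (adjusted p = 0.015, limma), against -0.09 (adjusted p = 0.66) as deposited.

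**Figure D2:**
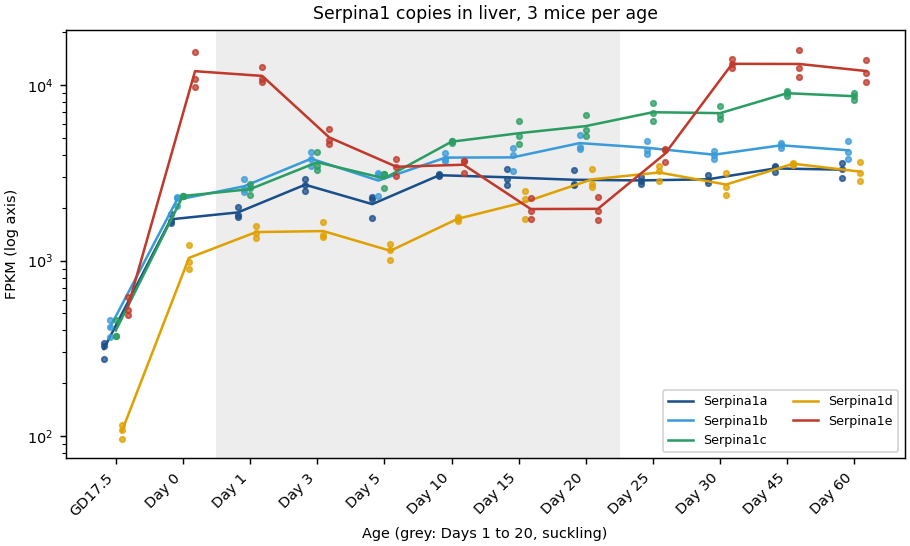
FPKM of the 5 Serpina1 genes (log axis) at the 12 ages, evenly spaced; points are single mice (3 per age), lines join the age means and grey marks suckling. Serpina1e (red) stands at 12017 FPKM at Day 0, 1973 at Day 20 and 13239.5 at Day 30, while Serpina1c (green) goes from 2335 at Day 0 to 8651 at Day 60.

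These courses changed which copy held the largest share of the Serpina1 FPKM. Serpina1e made up 30.6 ± 1.8% (SD, n = 3) of the summed FPKM at GD17.5, 61.6 ± 5.1% at Day 0, 10.8 ± 0.43% at Day 20 and 44.4 ± 2.6% at Day 30. Serpina1c held the largest share at Day 20, 31.9 ± 0.69%, and Serpina1b the next, 25.6 ± 0.64%. The SDs are over mice and do not cover how shared reads were divided, which matters most for Serpina1c and Serpina1a. The sum over the 5 copies was 1778 ± 184 FPKM at GD17.5, 19329 ± 3104 at Day 0, 18292 ± 2312 at Day 20 and 31460.2 ± 2858 at Day 60. The Day 0 sum was 10.8 times and the Day 60 sum 17.7 times the fetal one, as geometric means. Between Day 0 and Day 20 the sum thus overlapped in range over the mice (17221 to 22893 and 16582 to 20923 FPKM), while its makeup moved from Serpina1e to the other copies, whose sum without Serpina1e went from 7312 ± 245 to 16318 ± 2021 FPKM. The 5 genes together made up 0.418 ± 0.030% of all FPKM at GD17.5 and 7.95 ± 0.85% at Day 60. Among all symbols Serpina1e ranked 5 at Day 0 and 2 at Day 30 by mean FPKM.

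Serpina3k, contrapsin, had the widest range of the 10, with a highest age mean (9294 FPKM, Day 30) 11106 times its lowest (GD17.5). The fetal mice held 0.881, 1.10 and 0.525 FPKM, the newborn mice 394, 127 and 169.9, and the Day 10 mice 18.95, 17.7 and 12.6. At Day 20 the values were 434, 750.3 and 656, at Day 25 they were 5812, 6659 and 5811 and at Day 60 they were 8441, 6906 and 6875. None of the Day 20 mice came near those of Day 25, which lie on the other side of weaning. The gene rose from Day 10 to Day 15 by 2.71 (log2, SE 0.49, adjusted p = 0.00031), from Day 15 to Day 20 by 2.41 (adjusted p = 0.0059) and from Day 20 to Day 25 by 3.34 (adjusted p = 1.9e-05, limma), and no later step passed the test.

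Before that rise Serpina3k went down during early suckling. Its difference from Day 1 to Day 3, -1.47, just missed the threshold (adjusted p = 0.051, limma). It passed with the filter at 5 FPKM, under upper quartile or common-sum scaling, with the replicate block and without any 1 of 8 mice (adjusted p from 0.0072 to 0.048). Of these mice only Day 1 replicate 2 and Day 3 replicate 2 belonged to the ages compared. Serpina3k fell from Day 5 to Day 10 by 1.42 (adjusted p = 0.025, limma), and at Day 10 its log2 difference from Day 60 was -8.74 (SE 0.49, adjusted p = 1.2e-14, limma). The Day 15 mice were far apart, at 30.99, 171 and 259 FPKM. Without replicate 1 of Day 15 the step to Day 20 was 1.5 and missed the threshold (adjusted p = 0.082, limma). The earlier fall lost its call without replicate 2 of Day 5 (-0.97, adjusted p = 0.16), without replicate 3 of Day 10 (-1.25, adjusted p = 0.096) and under upper quartile scaling (-0.98, adjusted p = 0.23).

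Serpina3n, the acute phase member, took a different course in the same livers. It stood at 2.91, 2.19 and 2.82 FPKM in the fetal mice, at 279, 97.4 and 197 at Day 0, at 714, 678 and 568 at Day 10 and at 118, 100.3 and 87.4 at Day 60. Every mouse of Day 10 lay above every adult mouse, with a log2 difference of 2.67 between the means (SE 0.22, adjusted p = 6.9e-11, limma). It was above Day 60 at each age from Day 0 to Day 30. The Day 0 difference, 0.78, lost its call without replicate 1 of Day 0 (0.45, adjusted p = 0.067, limma) and under upper quartile scaling (0.45, adjusted p = 0.066), and the Day 30 difference, 0.79 (adjusted p = 0.042), lost it with no filter on low values and without any 1 of 8 mice. From Day 20 to Day 25 Serpina3n fell by 0.83 (adjusted p = 0.018, limma), a call that ended without replicate 3 of Day 20 (adjusted p = 0.11) and without replicate 2 or 3 of Day 25 (0.082 and 0.051).

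Serpina3m was called below its adult level at GD17.5, Day 0 and Day 1. From 0.0794, 0.0639 and 0.0453 FPKM in the fetal mice it reached 145, 29.1 and 104 at Day 0, 141, 166 and 178 at Day 1 and 382, 288 and 289 at Day 60. It rose from Day 0 to Day 1 by 1.07 (adjusted p = 0.0089, limma), but the Day 0 mice were far apart, and without replicate 2 of that age the step was 0.38 (adjusted p = 0.12). From Day 3 on no comparison with Day 60 passed the test as deposited; under upper quartile scaling Serpina3m was lower than Day 60 at Days 3 and 5 (-1.24 and -0.90), as it was at Day 3 with values scaled to a common sum (-0.75).

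Serpina3g and Serpina3c were minor genes in this tissue. Serpina3g had its highest mean at Day 5, with 9.17, 9.28 and 8.60 FPKM, against 2.02, 2.01 and 2.16 at Day 60 (log2 difference 1.71, SE 0.36, adjusted p = 0.00015, limma). At Day 20 a single mouse, replicate 1, held 15.3 FPKM and the other 2 held 2.66 and 4.58. That age was called higher than Day 60 (1.18, adjusted p = 0.023), and without this mouse the difference was 0.56 (adjusted p = 0.32, limma); leaving out any 1 of the 3 adult mice also ended the call. Serpina3c had a highest mean of 1.79 ± 0.0906 FPKM at Day 10 and stood at 0.859, 0.901 and 0.932 at Day 60. Its differences from Day 60 at Days 3 to 20, from 0.48 to 0.56 on the log2 scale, were called; those at Days 3 and 5 were lost under upper quartile scaling (adjusted p = 0.41 and 0.23, limma).

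**Figure D3:**
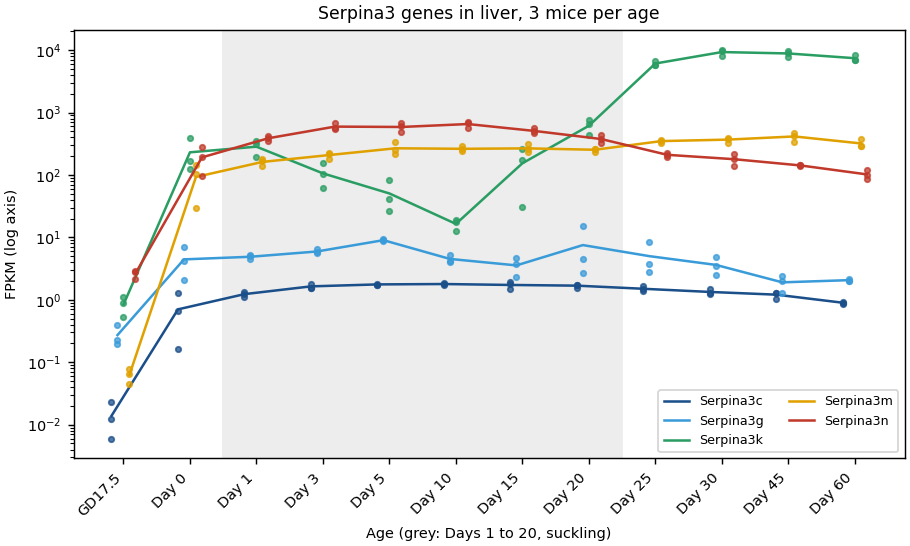
FPKM of the 5 Serpina3 genes (log axis) at the 12 ages, evenly spaced; points are single mice (3 per age), lines join the age means and grey marks suckling. Serpina3k (green) drops to 16.4 FPKM at Day 10 and stands at 6094 at Day 25, while Serpina3n (red) is at 653 at Day 10 and 102 at Day 60.

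The Serpina3 mRNA of suckling liver from Day 3 to Day 15 was mainly Serpina3n and that of weaned liver mainly Serpina3k. Serpina3n supplied 69.6 ± 1.7% (SD, n = 3) of the summed FPKM at Day 10 and 1.30 ± 0.088% at Day 60, and Serpina3k 1.74 ± 0.19% and 94.6 ± 0.20%. The sum was 3.83 ± 0.237 FPKM at GD17.5, between 839 and 939 from Day 1 to Day 15, 1252 ± 146 at Day 20 and 6659 ± 457 at Day 25. In the adult mice it was 7832 ± 964. Its Day 25 level was 5.33 times that of Day 20. Without Serpina3k the sum was highest at Day 10 (922 ± 91.8 FPKM) and stood at 425 ± 68.7 at Day 60. Serpina3 genes made up 5.25 ± 0.51% of the FPKM of all 10 genes at Day 10 and 20.0 ± 3.0% at Day 60.

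**Figure D4:**
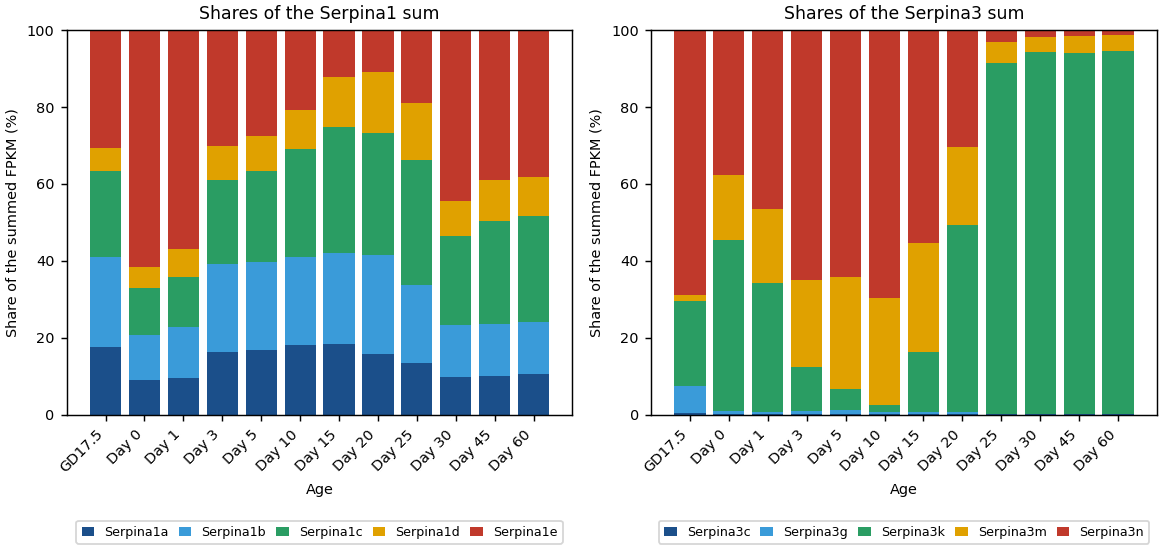
Stacked bars give the mean share (%, 3 mice per age) of each gene in the summed FPKM of the 5 Serpina1 genes (left) and of the 5 Serpina3 genes (right). Serpina1e (red, left) holds 61.6% at Day 0, 10.8% at Day 20 and 44.4% at Day 30, and Serpina3k (green, right) goes from 1.74% at Day 10 to 91.5% at Day 25.

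Averaged over their ages, suckling and weaned livers differed in every gene, in both directions. In Days 1 to 20 against Days 25 to 60, 3 of 10 were higher (Serpina3c, Serpina3g and Serpina3n) and 7 lower, where 68.1% of all genes tested were higher and 11.7% lower. The largest of the 7 was Serpina3k, with a log2 difference of -6.19 (SE 0.22, adjusted p = 4.4e-20), followed by Serpina1e, with -1.37 (SE 0.07, adjusted p = 4.9e-16, limma). Serpina3n was higher by 1.72 (SE 0.10, adjusted p = 4.1e-15, limma). These averages do not hold at each suckling age. Serpina1b, counted as lower, had its highest mean of all ages at Day 20 (4677 FPKM). Against Day 60, Serpina1a was not called at Days 10, 15 and 20, Serpina3m not from Day 3 to Day 20. Serpina1e at Day 1 was not called either (log2 difference -0.09, adjusted p = 0.66, limma). The median over the 10 genes was -0.45 and that over all genes tested 0.39. After upper quartile scaling of the libraries the latter became 0.13, and the difference of Serpina3c, 0.24 as deposited, was 0.01 and no longer called (adjusted p = 0.90).

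At Day 20, the last suckling age, 6 of the 10 genes still differed from the adult level. In Day 20 against Day 60, 3 of 10 were higher (Serpina3c, Serpina3g and Serpina3n) and 3 lower (Serpina1c, Serpina1e and Serpina3k), beside 8.93% and 6.99% of all genes tested. Across weaning, from Day 20 to Day 25, 2 of 10 rose (Serpina1e and Serpina3k) and 1 fell (Serpina3n), beside 3.94% and 3.26%. By Day 45 the log2 differences of the 10 genes from Day 60 lay between -0.10 (Serpina3g) and 0.48 (Serpina3n), with adjusted p from 0.66 to 1.00 (limma).

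**Figure D5:**
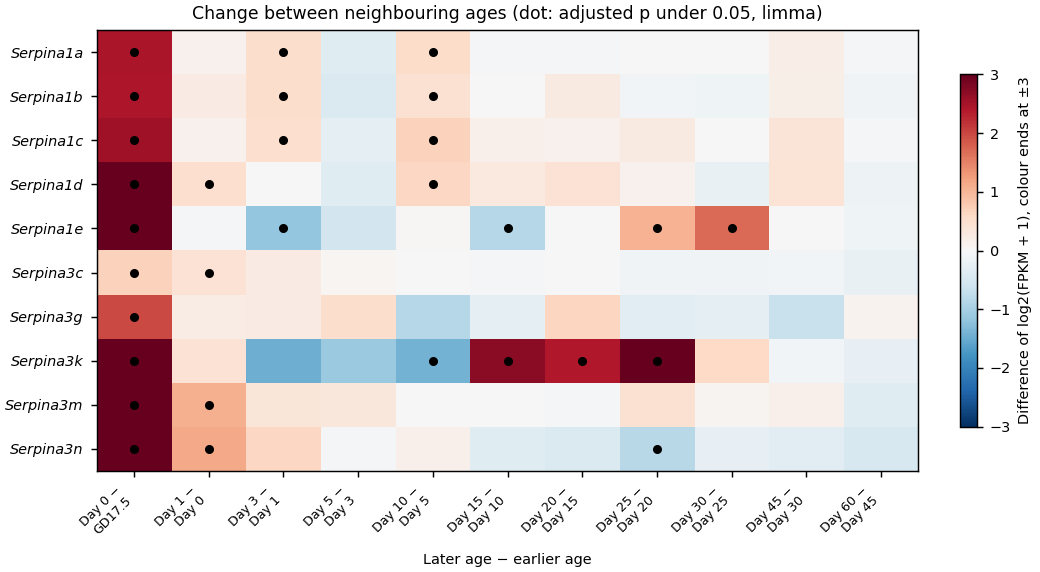
Colour gives the difference of log2(FPKM + 1) between each age and the one before it for the 10 genes (red higher at the later age, ends of the scale at 3), and a dot marks an adjusted p under 0.05 (limma). Dots fill the column of birth (10 of 10), and from Day 20 to Day 25 they mark Serpina1e, Serpina3k and Serpina3n.

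Other serpins of the cluster went their own ways. Serpina6, the gene for corticosteroid-binding globulin and a neighbour of the Serpina1 copies, was high in the fetus at 796 ± 68.1 FPKM (n = 3), fell at birth to 8.41 ± 8.94 (log2 difference -6.81, adjusted p = 1.8e-14, limma) and was back at 414 ± 41.4 by Day 15. Serpina11 rose at birth from 9.11 ± 2.67 to 141 ± 16.1 FPKM. Serpina12, which encodes vaspin, stood at 0.129 ± 0.0418 FPKM at Day 20 and 12.2 ± 3.04 at Day 30, and rose from Day 25 to Day 30 (log2 difference 2.57, adjusted p = 5.1e-06, limma), the step at which Serpina1e also rose. Of the 15 neighbours listed, 14 were in the table and 9 passed the filter on low values; of those 9, 6 rose and 1 fell at birth (13.1% and 41.4% of all genes tested), and 4 were higher and 5 lower in suckling than in weaned livers (68.1% and 11.7%). Of 8 other plasma serpin genes, among them Serpinc1 (antithrombin), Agt (angiotensinogen) and Serpina7 (thyroxine-binding globulin), all 8 rose at birth, beside 13.1% of all genes.

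Genes tied to the serpins by function were counted in the same comparisons. Of 14 proteases that serpins of these families or their relatives are known to meet, or that lie in the same compartments, 10 were higher in Days 1 to 20 than in Days 25 to 60 and 0 were lower, close to the 68.1% of all genes tested that were higher (11.7% lower), with a median log2 difference of 1.04 against 0.39 over all genes. Elane, neutrophil elastase, stood at 162 FPKM at GD17.5 and 0.0591 at Day 60 and is itself one of the neutrophil markers given above. Prtn3 and Ctsg, also among the 14, are neutrophil markers too. The 14 together summed to between 453 and 2783 FPKM over the mice of Day 60, the age with the highest pancreatic sum. The part of pancreatic transcripts in this range was not tested. Of 18 acute phase genes, 13 rose and 1 fell at birth, with a median of 2.24, beside 13.1% and 41.4% of all genes and a median of -0.29. In suckling against weaned livers 7 of the 18 were higher and 10 lower, beside the same 68.1% and 11.7%. Among these Orm1, for an acid glycoprotein of plasma, rose from Day 20 to Day 25 by 4.63 (adjusted p = 3.1e-15, limma), from 17.3 ± 9.25 to 421 ± 39.2 FPKM, the same step as the largest post-natal rise of Serpina3k. Of 21 regulators (HNF, C/EBP, FOXA, glucocorticoid, growth hormone and cytokine signalling genes), 8 rose and 2 fell at birth (13.1% and 41.4% of all genes), and 0 rose and 1 fell from Day 20 to Day 25 (3.94% and 3.26%). In suckling against weaned livers 11 of the 21 were higher and 3 lower, beside 68.1% and 11.7%, and their median of 0.33 was close to the 0.39 of all genes. Ghr, the growth hormone receptor, was lower in suckling livers (log2 difference -1.26, adjusted p = 4.8e-16, limma), and its difference from Day 20 to Day 25 was not called (-0.0040, adjusted p = 1.00). Of 10 genes for the secretion and uptake of serpins, 1 rose and 3 fell at birth, near the 13.1% and 41.4% of all genes.

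Likeness of course over the 12 ages was described by Pearson's r of the age means of log2(FPKM + 1), without a test, since the ages share 1 series of mice and all these genes share the low fetal point. Serpina1a and Serpina1b were nearly parallel (r = 0.994), whereas Serpina1e had r of 0.575 to 0.628 with the other copies, and Serpina3k had 0.230 with Serpina3n. Outside the group, the genes nearest to the Serpina1 sum were Crp, Azgp1 and Lims2 (0.971, 0.970 and 0.967), and those nearest to Serpina1a were Vtn (vitronectin), Serpinc1 and Ambp. Serpina1e had a nearest gene, Prdx5, at only 0.927. Serpina3k was nearest to Cyp27a1 (0.966), Oplah and Egfr, and Serpina3n to Gpihbp1 (0.988), Igfbp2 and Kng1. Serpina3g was nearest to its neighbour Serpina3f (0.979), which in the Day 20 mice also spanned a wide range, 2.54 to 11.9 FPKM. Serpina3m was nearest to Rdh7, Asgr1 and Fetub and Serpina3c to Tmem53, Lipc and Lcat; Serpina1b to Fetub, Cyp2e1 and F12, Serpina1c to Ces2a, Tat and Tmprss6, and Serpina1d to Azgp1, Ces2a and Serpinf1.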

How the data were processed

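The authors isolated total RNA from livers of male mice, selected polyadenylated RNA and sequenced paired-end libraries. They mapped the reads to NCBI37/mm9 with TopHat 1.2.0 and estimated abundance with Cufflinks 1.0.3, with Ensembl version 65 as the annotation. They deposited 1 FPKM value per gene symbol and mouse, on the linear scale, without read counts. How multi-mapped reads were treated is not given in the sources used here, and no further scaling between libraries is named; the depth of single libraries is therefore unknown and no counting interval is given. Per the labels, samples fall into 12 ages of 3 mice. A p-value sets a difference against the spread between mice of the same age, pooled over all 12 ages and moderated across genes.

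Values were transformed to log2(FPKM + 1), and genes whose mean reached 1 FPKM at any age (11149) were fitted with limma 3.58.1 in R 4.3.3, with 1 mean per age over all 36 mice, moderated variances with a mean trend and two-sided tests. P-values were adjusted by Benjamini-Hochberg over all genes within each comparison, and over all genes and the 11 comparisons with Day 60 for a difference in at least one age, with a threshold of 0.05. Sums and shares were computed per mouse and not tested. The fit was tested on simulated data. Alternatives were a pseudocount of 0.1, a filter at 5 FPKM or none, upper quartile or common-sum (1000000) scaling, a replicate block, no mean trend, adjustment within each comparison and each mouse left out in turn. Sequences came from GENCODE M1 (NCBI37/mm9) and RefSeq (GRCm38.p6). Python 3.11.15 with numpy 2.4.6, pandas 2.3.3 and matplotlib 3.10.9 was used for the other steps. The text names the 10 genes, up to 4 examples per gene list or genes that a result turns on, and the 3 genes nearest to each member in course. The genes followed and the lists were chosen with earlier results of these data known.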

Additional observations from a re-analysis of the deposited data

How the results depend on the processing

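The number of the 10 genes called against Day 60 at any age was 10 with all mice and 9 to 10 under the other settings, and 9 was reached with a filter at 5 FPKM, where Serpina3c was not tested. Calls against Day 60 summed over 11 ages were 63 of 110, with 57 to 65 under other settings and 59 to 68 without 1 mouse. Calls between neighbouring ages were 30, with 26 to 34 and 29 to 34. The counts for suckling against weaned livers and against GD17.5 with Day 0 were both 10 and remained 10 without any 1 mouse; both were 9 with the filter at 5 FPKM, and the first was 9 under upper quartile scaling. The replicate numbers of the labels belong to different animals. Across ages, r of their deviations from the age means was over 0.1 in 104 of 198 same-number pairs (median 0.126). It was over 0.1 in 147 of 396 pairs of different number (median -0.048), so same-number pairs ran higher. What mice of the same number share, if anything, was not tested, and the main fit did not take the numbers as pairs. With the replicate block the counts were 10, 64, 33, 10 and 10, and 4 of 240 single calls were gained and none lost. The log2 ratios of summed FPKM moved under upper quartile scaling by more than the spread of the mice: Day 60 over GD17.5 went from 4.15 to 4.75 for Serpina1 and from 10.99 to 11.6 for Serpina3, and Day 0 over GD17.5 went from 3.44 to 3.71 for Serpina1; the median difference of all genes between GD17.5 and Day 60 was 0.56 as deposited, 0.15 under this scaling and 0.60 with a common sum. Without 1 mouse these ratios were 4.07 to 4.23, 10.89 to 11.05 and 3.31 to 3.52, and Day 25 over Day 20 for Serpina3 was 2.31 to 2.48. Over single calls, upper quartile scaling ended 11 and added 7 of 240, and no alternative reversed a called direction. Serpina3g and Serpina3n lost calls most often when 1 mouse was left out (8 and 12 times). With 3 mice per age and no counts, the values of genes near 1 FPKM, Serpina3c above all, rest on few fragments whose number is unknown, and the split between Serpina1a and Serpina1c depends on how shared reads were divided.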
